A study of Mus musculus with 6 samples.

Results

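The genes described here make cholesterol and fatty acids in the cell, sense sterols, and move sterols out of the cell. The list names 43 genes, and each was read from the probe set that carries its symbol alone, the one with the highest mean over all 6 arrays where a gene had several. Of the 43 genes 40 were measured in this way, out of 19938 genes in all. Acat2 and Soat1 were not analysed here because no probe set carried their symbol alone, and Apoc2 shares its probe set with the predicted gene Gm44805.

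The cells came from the tibialis anterior muscle of 3 mice, 2 days after cardiotoxin, a snake venom toxin used to destroy fibres so that the muscle regenerates. All mice belonged to strain B6.129P2-Lyzstm1(cre)Ifo/J, which carries Cre recombinase at the lysozyme locus, a locus active in myeloid cells, and the labels name no floxed allele. Their age and sex are not stated in the labels. From each mouse, cells bearing CD45, the common antigen of blood-lineage cells, were sorted with fluorescent antibodies into cells that are Ly6C+ F4/80low and cells that are Ly6C- F4/80high, with 3 arrays for each subset. The values are log2 levels, and every difference given here is the Ly6C- F4/80high level minus the Ly6C+ F4/80low level, with its standard error (SE). A gene is called when its limma p-value, adjusted by the Benjamini-Hochberg method over all 19938 genes, is under 0.05. Levels of different genes are not compared, since each probe set has its own response.

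Cholesterol synthesis starts from acetyl-CoA, runs through mevalonate and squalene, and ends in a long series of changes to the sterol rings. When sterols are scarce in the endoplasmic reticulum, SCAP carries the SREBP transcription factors to the Golgi, where they are cut and released to switch on the enzymes of this pathway, while INSIG proteins hold SCAP back when sterols are plentiful. When sterols build up, oxysterols activate the nuclear receptors LXR, which switch on efflux pumps, apolipoproteins and lipid-remodelling enzymes. Macrophages that engulf dying cells take in large amounts of membrane cholesterol, so both arms of this control are well known in them.

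Stretches of RefSeq promoter sequence (build GRCm38.p6) show what the regulated enzymes share and where they differ. Each line gives the 150 bases before the transcription start, 5′ to 3′ on the strand of the gene, with matches to 2 motifs, which do not overlap, in capitals. The motifs are the CCAAT box, bound by NF-Y, a usual partner of SREBP, written CCAAT or, on the other strand, ATTGG, and the sterol regulatory element TCACNCCAC. Hmgcs1 is shown for its match to the sterol element (chr13:119690201-119690350, plus strand), Idi1 (chr13:8885456-8885605, plus strand) and Cyp51 (chr5:4104698-4104847, minus strand) as the enzymes with the largest negative differences, Mvk (chr5:114444119-114444268, plus strand) and Lss (chr10:76531455-76531604, plus strand) as enzymes called in the other direction, and Abca1 (chr4:53159896-53160045, minus strand) as an LXR target.
Hmgcs1: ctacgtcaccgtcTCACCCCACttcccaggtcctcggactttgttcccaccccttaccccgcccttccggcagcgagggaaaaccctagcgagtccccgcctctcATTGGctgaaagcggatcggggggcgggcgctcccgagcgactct
Idi1: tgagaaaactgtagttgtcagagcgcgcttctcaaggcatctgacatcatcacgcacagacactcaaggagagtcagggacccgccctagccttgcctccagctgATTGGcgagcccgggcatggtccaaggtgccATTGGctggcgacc
Cyp51: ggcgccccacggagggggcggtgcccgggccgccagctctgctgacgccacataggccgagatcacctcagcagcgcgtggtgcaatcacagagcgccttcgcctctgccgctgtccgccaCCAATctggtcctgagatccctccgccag
Mvk: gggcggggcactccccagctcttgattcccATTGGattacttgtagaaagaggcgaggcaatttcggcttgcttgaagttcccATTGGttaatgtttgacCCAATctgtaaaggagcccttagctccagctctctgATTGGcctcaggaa
Lss: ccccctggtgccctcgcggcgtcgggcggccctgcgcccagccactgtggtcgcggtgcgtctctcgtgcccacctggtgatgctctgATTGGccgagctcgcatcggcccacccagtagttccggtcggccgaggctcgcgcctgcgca
Abca1: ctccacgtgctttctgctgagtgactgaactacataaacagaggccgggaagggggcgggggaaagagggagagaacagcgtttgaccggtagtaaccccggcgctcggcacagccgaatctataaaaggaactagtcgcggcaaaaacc

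Windows from 250 bases before to 50 after the start were found for 33 of the 43 members. A CCAAT box on either strand was present for 14 of the 15 sterol synthesis enzymes with a window (93.3%), against 41.1% of the 27025 genes with a window. The box was found in all 5 enzymes with a window called lower among the Ly6C- F4/80high cells, and also in all 4 called higher. Among the LXR-driven efflux genes it was found in 3 of 6, namely Pltp, Lpcat3 and Mylip. The sterol element TCACNCCAC was found in Hmgcs1 alone among the 33 members with a window (3.03%), against 1.44% of all genes. Other forms of this element were not searched. The LXR element varies between genes and no result on it is given here. A gene with several windows was counted once if any window held the motif, and a match of letters does not show that a factor is bound.

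Across probe sets, correlations ran from 0.990 to 0.993 within a subset and from 0.979 to 0.982 between subsets. All 8 macrophage markers checked were above background on all 6 arrays. Of these, 3 were called higher (Adgre1, Cd68 and Mertk) and 4 lower (Ptprc, Itgam, Fcgr1 and Cd14), while Csf1r was not called. Adgre1 encodes F4/80 and Ptprc encodes CD45, antigens on which the cells were sorted, so neither is an independent check. The background was 5.44, the 95th percentile of olfactory and vomeronasal receptor genes. Among the neutrophil markers, Ly6C- F4/80high cells were lower for 3 of 8, with a sum of log2 levels of 37.1 to 38.2 against 39.2 to 40. Of these 3, the defining gene Ly6g and Cxcr2 were not above background on any array. S100a9 was above it on all 3 Ly6C+ F4/80low arrays and on no Ly6C- F4/80high array. Of the dendritic cell markers 3 of 6 were called lower (sums 31.0 to 31.8 against 33.6 to 34.0). On all Ly6C+ F4/80low arrays 4 of the 6 were above background, and on all Ly6C- F4/80high arrays 1, while Xcr1 and Clec9a were never above it. Of the endothelial markers 3 of 4 were called lower (22.9 to 23.2 against 25.7 to 26.0). Pecam1, Cdh5 and Kdr were above background on all 6 arrays, and Tek was not above it on any. All 4 fibroblast markers were called lower (22.6 to 23.1 against 24.5 to 26.2). Among muscle markers 2 of 6 were called lower (34.0 to 34.8 against 35.0 to 35.2). Of the 3 platelet markers Pf4 was called higher (1.38), and the sums were 28.1 to 28.7 against 26.5 to 27.8. Ppbp (-0.08) and Itga2b (-0.02) were not called, and all 3 were above background on every array. Of 5 T cell markers Cd3e was called lower (sums 23.7 to 24.5 against 24.9 to 25.6), of 4 B cell markers Cd79b was called higher (20 to 20.7 against 20.2 to 20.5), and of 3 eosinophil markers Siglecf was called lower (15.3 to 16.2 against 15.7 to 16.5), all 3 of these genes being above background on every array. The B cell markers Cd79a (-0.21), Ms4a1 (-0.03) and Pax5 (-0.13) were not called. Cd79a, Ms4a1, Cd3d, Cd3g, Prg2 and Epx were not above background on any array. Of the 3 mast cell markers Kit was called lower (12.1 to 13.0 against 13.0 to 13.1), and all 3 were not above background. The sum of the 4 NK cell markers was 16.7 to 17.7 against 17.5 to 17.9. Of the 4 adipocyte markers measured none was called (0 at adjusted p under 0.05 in limma). Plin1 was above background on all 6 arrays, and Cidec on 2 Ly6C- F4/80high and 3 Ly6C+ F4/80low arrays. Adipoq and Lep were not above it on any array. In sorted cells measured in bulk, fewer cells of a type and less RNA per cell cannot be told apart, and the part of these other cell types in the differences below was not tested.

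Ly6C- F4/80high cells had higher levels of most efflux genes, while synthesis genes were split. Of the 7 measured LXR-driven efflux genes 6 were called higher and 1 lower, with a median difference of 0.72, whereas of 19 measured genes of SREBP-driven synthesis (the enzymes with Insig1 and Stard4) 4 were called higher, 8 lower and 7 not at all, with a median of -0.20. For comparison, 19.5% of all 19938 genes were called higher and 14.3% lower, with a median difference of -0.06. The share called lower among the synthesis genes was 42.1% and the share called higher among the efflux genes 85.7%. Without the lower 50% of genes by level, 38% of the genes kept were called higher and 19.3% lower. In that setting 3 of 17 synthesis genes were called higher and 10 lower (58.8%), and all 6 efflux genes fitted were called higher. Quantile normalization split the synthesis genes into 3 higher and 11 lower. When mouse 3's Ly6C- F4/80high array was dropped, 3 were called higher and 5 lower (26.3%, against 8.98% of all genes), and when mouse 1's Ly6C+ F4/80low array was dropped, 4 and 5 (26.3%, against 10.9%). The higher calls fell from 4 to 2 when mouse 1's Ly6C- F4/80high array, the Ly6C+ F4/80low array of mouse 2 or 3, or all of mouse 2 or 3 was dropped. The efflux genes kept 6 higher calls under every alternative. The median of the efflux genes exceeded that of the synthesis genes by 0.92, and by 0.98, 0.96 and 0.69 in mice 1, 2 and 3. Over all 40 measured members 14 were called higher, 11 lower and 15 not at all. The medians are descriptions with no p-value, since the genes were chosen with earlier results of these arrays known. The median level of the synthesis genes was 7.23, 7.34 and 7.14 in the Ly6C- F4/80high arrays of mice 1, 2 and 3 and 7.17, 7.12 and 6.91 in the Ly6C+ F4/80low arrays. The median of levels and the median of differences thus had opposite signs for the synthesis genes, and 4 of these genes were called higher. Subsets showed no overlap between their arrays for 14 of the 19 synthesis genes and for all 7 efflux genes, against 48.1% of all genes.

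**Figure D1:**
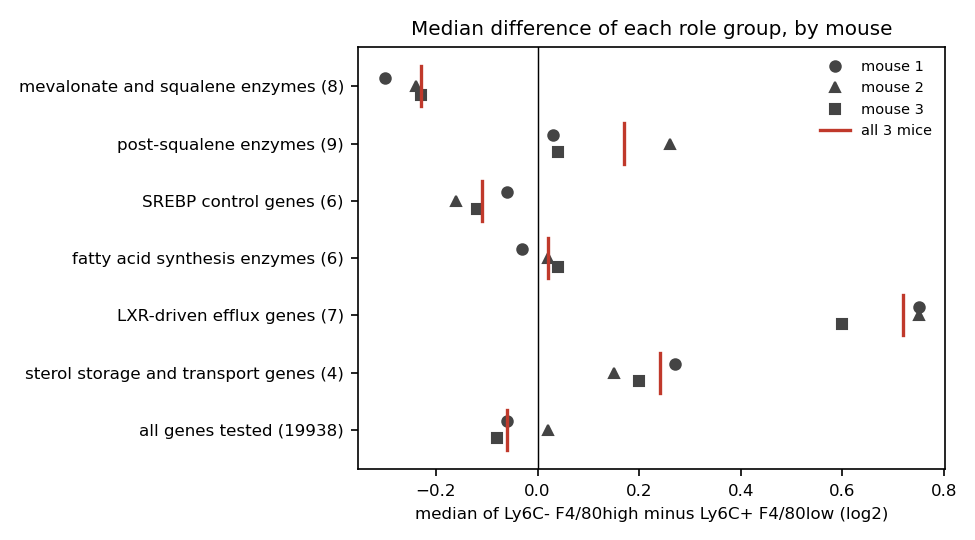
Median log2 difference (Ly6C- F4/80high minus Ly6C+ F4/80low, x axis) of each role group and of all genes, with the number of measured genes in parentheses. Black symbols are the 3 mice and red lines the value over all 3, and the efflux genes lie at 0.60 to 0.75 in every mouse while the mevalonate and squalene enzymes lie at -0.30 to -0.23.

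Of 8 measured enzymes from acetyl-CoA to squalene epoxide, the first part of the sterol pathway, 4 were called lower and 1 higher. These shares, 50% and 12.5%, compare with 14.3% and 19.5% of all genes. The other 3 were not called, and the median was -0.23 (-0.35 under quantile normalization). Idi1, the isomerase that makes the reactive isoprene unit, had the largest difference of all members. It stood at 6.19, 5.82 and 5.95 in the Ly6C- F4/80high cells of mice 1, 2 and 3 and at 7.17, 7.17 and 6.91 in the Ly6C+ F4/80low cells. The arrays of the subsets lay far apart, and the difference was -1.10 (SE 0.11, adjusted p = 5.95e-05), a 2.14-fold lower level. A further probe set of Idi1 gave -1.07. Fdps, which joins isoprene units into farnesyl diphosphate, stood at 7.23, 7.34 and 7.14 against 7.84, 7.71 and 7.74, again without overlap (difference -0.53, SE 0.08, adjusted p = 0.000791). Fdft1, squalene synthase and the first enzyme committed to sterols, differed by -0.50 (SE 0.15, adjusted p = 0.0274) and by -0.52 on its other probe set.

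The call of Fdft1 was lost when the Ly6C- F4/80high array of mouse 1 (0.0635) or of mouse 3 (0.105) was dropped, when the Ly6C+ F4/80low array of mouse 1 was dropped (0.0857), and when all of mouse 1 was dropped (0.146). Mvd, the decarboxylase before Idi1, differed by -0.26 (SE 0.09, adjusted p = 0.0415). Its call was lost with the mouse as a block (adjusted p = 0.0689). It was also lost when the Ly6C- F4/80high array of mouse 1 (0.106) or 3 (0.149), the Ly6C+ F4/80low array of mouse 1 (0.102), 2 (0.0623) or 3 (0.0992), or all of mouse 1 (0.195) or mouse 3 (0.261) was dropped.

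Mvk, the kinase that acts on mevalonate itself, went the other way. Its levels were 7.37, 7.37 and 7.34 in the Ly6C- F4/80high cells and 6.78, 6.96 and 6.77 in the Ly6C+ F4/80low cells, with no overlap (difference 0.53, SE 0.08, adjusted p = 0.000704). Mvk and Idi1, which act on the same route and both have CCAAT boxes in the stretches printed above, differed in opposite directions. A part of the box in either difference was not tested. Hmgcs1, the synthase at the entry of the pathway and the only member whose window matched TCACNCCAC, was not called. It averaged 7.88 ± 0.12 (SD, n = 3) against 7.90 ± 0.17, and its difference of -0.01 had a 95% interval of -0.24 to 0.22. Pmvk, the kinase after Mvk, differed by -0.08 (95% interval -0.27 to 0.10). Sqle, the epoxidase that ends this part, differed by -0.20 (SE 0.08, adjusted p = 0.0948) although its arrays did not overlap, and it passed the threshold when the Ly6C+ F4/80low array of mouse 3 was dropped (-0.27, adjusted p = 0.0381), under quantile normalization (-0.32, adjusted p = 0.0152), under cyclic loess (-0.28, adjusted p = 0.0293) and without the lower 50% of genes by level (adjusted p = 0.0478).

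In the second part, from lanosterol formation to cholesterol, the 9 enzymes were split, with 3 called higher, 3 lower and 3 not at all. Each share of calls was 33.3%, against 19.5% higher and 14.3% lower among all genes. The median was 0.17 and the mean -0.02. That median was 0.04 under quantile normalization and without the lower 50% of genes by level, 0.03 under cyclic loess, 0.09 when mouse 1's Ly6C- F4/80high array was dropped, 0.05 when mouse 2's Ly6C+ F4/80low array was dropped and 0.04 without mouse 2. Cyp51, the demethylase that acts on lanosterol, stood at 5.80, 6.04 and 5.84 in the Ly6C- F4/80high cells and 6.88, 6.94 and 6.76 in the Ly6C+ F4/80low cells. The groups lay far apart and the difference was -0.96 (SE 0.09, adjusted p = 3.53e-05), a 1.95-fold lower level. Msmo1, a methylsterol oxidase of a later step, stood at 8.13, 8.30 and 8.25 against 8.68, 8.73 and 8.55, without overlap (difference -0.43, SE 0.08, adjusted p = 0.00321). Dhcr7, the reductase of the last step to cholesterol, was higher instead. It stood at 7.56, 7.49 and 7.41 against 6.91, 6.80 and 6.63, a difference of 0.70 (SE 0.09, adjusted p = 0.000248) with no overlap.

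The remaining calls of this part were of smaller size, and each was lost when some arrays were left out. Sc5d, a sterol desaturase, differed by -0.32 (SE 0.11, adjusted p = 0.0427), Nsdhl, which helps to remove methyl groups, by 0.30 (SE 0.09, adjusted p = 0.0251), and Lss, the cyclase that forms lanosterol, by 0.28 (SE 0.09, adjusted p = 0.0367). Only 1 of the 3 Ly6C+ F4/80low arrays was above background for Lss. Without mouse 1's Ly6C- F4/80high array the calls of Nsdhl (adjusted p = 0.0913) and Lss (0.0833) were lost, without that of mouse 2 those of Lss (0.0726) and Sc5d (0.105), and without that of mouse 3 those of Lss (0.088) and Sc5d (0.132). Without mouse 1's Ly6C+ F4/80low array the call of Sc5d was lost (0.139), without that of mouse 2 those of Lss (0.0945), Nsdhl (0.0586) and Sc5d (0.0653), and without that of mouse 3 those of Lss (0.125) and Nsdhl (0.0900). Without mouse 1 the calls of Nsdhl (0.0508) and Sc5d (0.0576) were lost, without mouse 2 those of Lss (0.143), Nsdhl (0.0772) and Sc5d (0.132), and without mouse 3 those of Lss (0.221), Nsdhl (0.134) and Sc5d (0.107). Lss was also not called with the mouse as a block (adjusted p = 0.0522), Sc5d with a common median (0.0548), and Nsdhl after quantile normalization (0.13, adjusted p = 0.310) or cyclic loess (0.16, adjusted p = 0.215). The sterol reductase genes Tm7sf2 and Hsd17b7 and the isomerase gene Ebp differed by 0.18, -0.09 and 0.17 and were not called, with adjusted p-values of 0.219, 0.430 and 0.222. Under quantile normalization Hsd17b7 passed the threshold (-0.25, adjusted p = 0.0477).

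**Figure D2:**
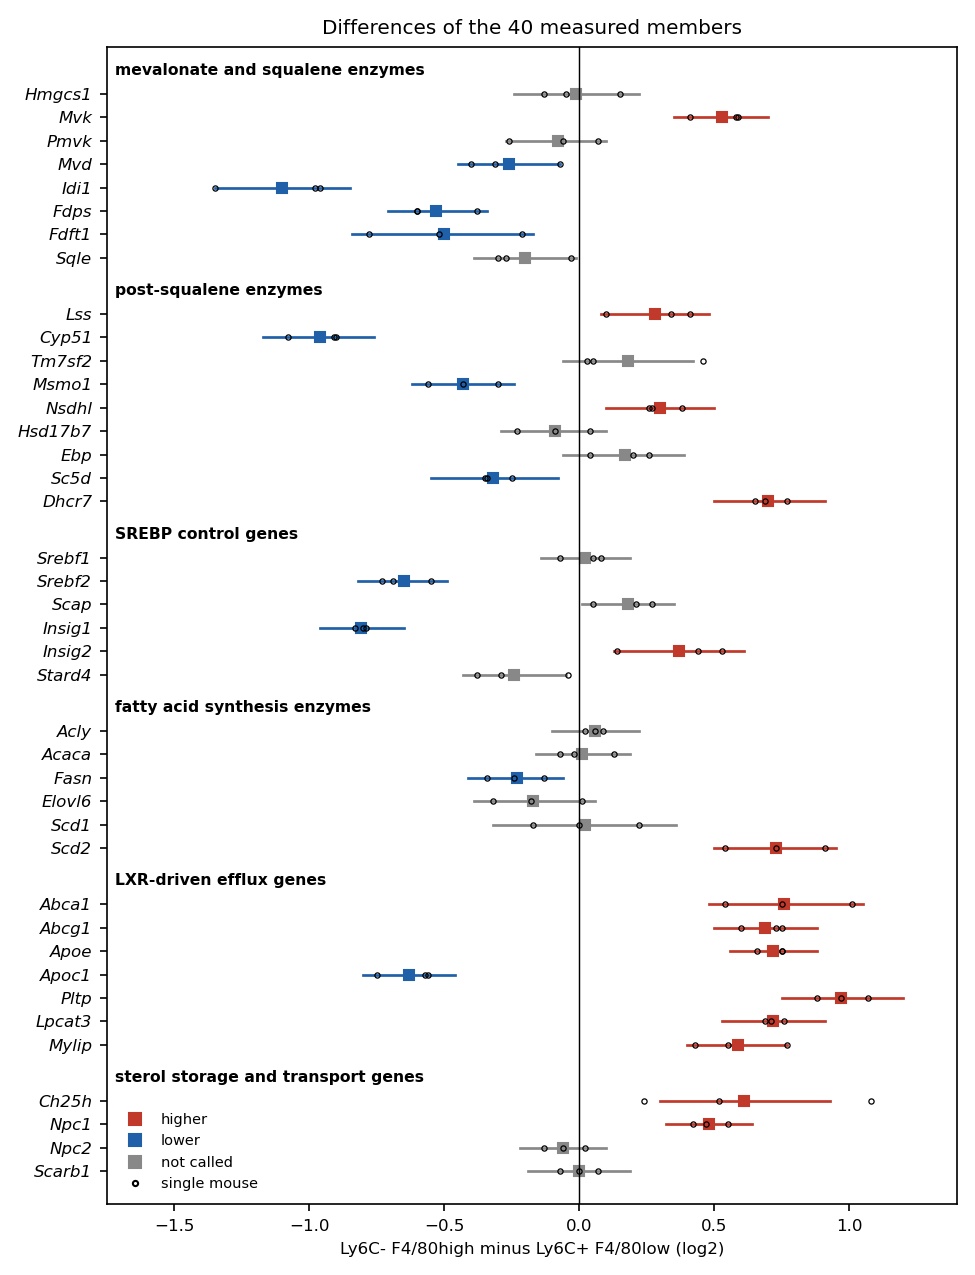
Log2 difference (x axis) of the 40 measured genes by role, in pathway order for the enzymes. Squares are the estimates over 3 mice, lines their 95% intervals and open circles the single mice, with red for called higher, blue for called lower and grey for not called. Among the sterol enzymes red and blue occur in both parts of the route, and among the efflux genes all but Apoc1 lie to the right.

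Of the 6 genes that control SREBP activity or carry sterols under it, 2 were called lower (33.3%, against 14.3% of all genes), 1 higher (16.7%, against 19.5%) and 3 not at all. Their median was -0.11, with -0.23 under quantile normalization and -0.19 under cyclic loess. Insig1, which holds SCAP in the endoplasmic reticulum and is itself an SREBP target, differed by far more than its arrays scattered. Its levels were 9.62, 9.65 and 9.61 in the Ly6C- F4/80high cells and 10.41, 10.45 and 10.44 in the Ly6C+ F4/80low cells, a difference of -0.81 (SE 0.07, adjusted p = 2.09e-05). The spread within each subset was 0.02 (SD, n = 3). Insig2, the paralog whose transcription does not depend on SREBP in the same way, stood at 7.83, 7.64 and 7.59 against 7.39, 7.11 and 7.45. It was called in the other direction (0.37, SE 0.11, adjusted p = 0.0236), with groups that came close but did not overlap. That call was lost when all of mouse 1 (0.105) or mouse 2 (0.0835) was dropped, and when mouse 1 lacked only its Ly6C- F4/80high array (0.0901) or mouse 2 only its Ly6C+ F4/80low array (0.0736). The difference was 0.19 (adjusted p = 0.214) under quantile normalization, and 0.23 (adjusted p = 0.144) under cyclic loess, neither of which passed.

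Srebf2, the gene of the SREBP that drives sterol synthesis, was lower in the Ly6C- F4/80high cells. It stood at 8.60, 8.63 and 8.52 against 9.29, 9.18 and 9.25, with a difference of -0.65 (SE 0.08, adjusted p = 0.000121) and no overlap. Srebf1, the gene of the SREBP that drives fatty acid synthesis and an LXR target in part, stood at 7.76, 7.79 and 7.87 against 7.83, 7.74 and 7.78. These values overlapped, and the difference of 0.02 had a 95% interval of -0.14 to 0.19. The isoforms of Srebf1 were not separated here. Scap differed by 0.18 (adjusted p = 0.0991), and Stard4, a soluble sterol carrier induced by SREBP, by -0.24 (SE 0.09, adjusted p = 0.0574). Stard4 passed the threshold when all of mouse 1 (-0.34, adjusted p = 0.0439) or only its Ly6C- F4/80high array (-0.30, adjusted p = 0.0345) was dropped, and under quantile normalization (-0.30, adjusted p = 0.0265). Without the lower 50% of genes by level, Scap (adjusted p = 0.0466) and Stard4 (adjusted p = 0.0256) both passed it.

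Fatty acid synthesis genes, which both SREBP and LXR can switch on, showed no common direction, with 1 of 6 called higher, 1 lower and 4 not at all (median 0.02, and from -0.11 to 0.06 over the alternatives). Both shares, 16.7%, lie near those of all genes. Scd2, a desaturase that makes monounsaturated fatty acids, stood at 8.92, 8.93 and 9.04 in the Ly6C- F4/80high cells and 8.39, 8.02 and 8.31 in the Ly6C+ F4/80low cells. Its difference was 0.73 (SE 0.10, adjusted p = 0.000428), a 1.65-fold higher level, with no overlap. Its paralog Scd1 was not above background on any of the 6 arrays, with values of 5.03, 4.98 and 4.63 against 5.20, 4.75 and 4.63, so no fold is given. Fasn, the fatty acid synthase, stood at 7.13, 7.10 and 7.25 against 7.36, 7.43 and 7.38 and differed by -0.23 (SE 0.08, adjusted p = 0.0392).

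The call of Fasn was lost with the mouse as a block (adjusted p = 0.0673) and with a common median (0.0825). It was also lost when the Ly6C- F4/80high array of mouse 1 (0.111) or 2 (0.095), the Ly6C+ F4/80low array of mouse 1 (0.0652), 2 (0.103) or 3 (0.0809), or all of mouse 1 (0.149), 2 (0.181) or 3 (0.0828) was dropped. Acly, which makes cytosolic acetyl-CoA, and Acaca, the carboxylase that makes malonyl-CoA, differed by 0.06 (95% interval -0.10 to 0.22) and 0.01 (95% interval -0.16 to 0.19). A further Acaca probe set gave 0.21. Elovl6, which lengthens palmitate, differed by -0.17 (adjusted p = 0.232), and quantile normalization made it pass (-0.32, adjusted p = 0.0284).

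The efflux arm was higher in the Ly6C- F4/80high cells for every measured member but Apoc1. Pltp, the phospholipid transfer protein of lipoproteins, stood at 10.98, 10.87 and 10.67 in the Ly6C- F4/80high cells and 10.01, 9.80 and 9.79 in the Ly6C+ F4/80low cells. Its difference was 0.97 (SE 0.10, adjusted p = 6.69e-05), a 1.96-fold higher level, and the groups did not overlap. Abca1, the pump that loads cholesterol onto lipid-poor apolipoproteins, stood at 10.72, 10.89 and 10.79 against 9.72, 10.14 and 10.25. The Ly6C+ F4/80low cells of mouse 1 were the lowest and the groups did not overlap (0.76, SE 0.13, adjusted p = 0.00127), and its difference was 1.01, 0.75 and 0.54 in mice 1, 2 and 3. Abcg1, the pump that passes cholesterol on to lipoprotein particles, stood at 9.93, 9.78 and 9.88 against 9.18, 9.05 and 9.28 and differed by 0.69 (SE 0.09, adjusted p = 0.000185). Abcg1 likewise showed no overlap. Apoe, an apolipoprotein that macrophages secrete, stood at 12.75, 12.74 and 12.75 against 12.09, 11.99 and 12.00, a difference of 0.72 (SE 0.07, adjusted p = 5.30e-05).

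Genes of membrane remodelling and receptor turnover under LXR were higher as well. Lpcat3, which puts polyunsaturated chains into phospholipids, averaged 9.53 ± 0.07 (SD, n = 3) against 8.81 ± 0.11 and differed by 0.72 (SE 0.08, adjusted p = 0.000132). Mylip, the ubiquitin ligase that marks the LDL receptor for breakdown, averaged 9.01 ± 0.11 against 8.43 ± 0.06 (SD, n = 3) and differed by 0.59 (SE 0.08, adjusted p = 0.000486). Apoc1, which lies in the same gene cluster as Apoe, went against the other efflux genes. It stood at 5.52, 5.69 and 5.65 in the Ly6C- F4/80high cells and 6.28, 6.26 and 6.21 in the Ly6C+ F4/80low cells, close to the background in the first, with a difference of -0.63 (SE 0.08, adjusted p = 0.000178). The probe set shared by Apoc2 and Gm44805 stood at 10.57, 10.65 and 10.45 against 10.35, 10.58 and 10.40, and these values overlapped. The apolipoprotein genes of this cluster therefore did not share a direction.

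**Figure D3:**
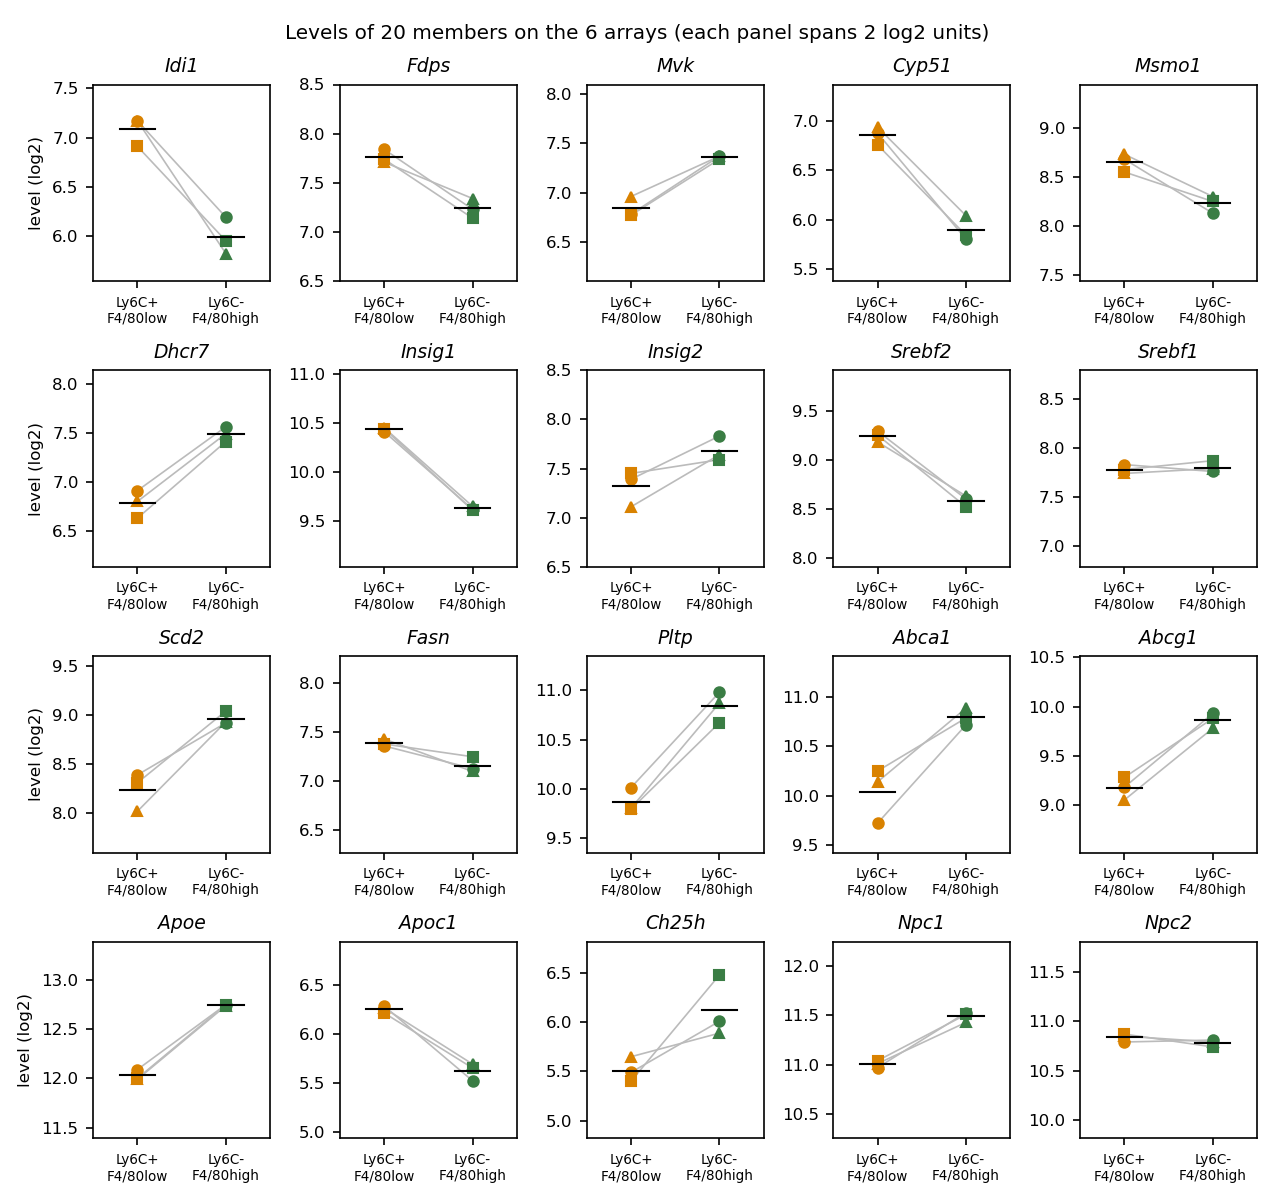
Log2 levels (y axis) of 20 members in both subsets (x axis), with circles, triangles and squares for mice 1, 2 and 3, grey lines joining the arrays of a mouse and black bars for the means. Each panel spans the same range, and Insig1, Apoe and Npc1 show separations far wider than the scatter of their arrays, whereas Srebf1 and Npc2 show none.

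Of the 4 measured genes of sterol storage and transport that belong to neither arm, 2 were called higher (50%, against 19.5% of all genes). None was called lower, against 14.3% of all genes. Their median was 0.24 (0.00 without the lower 50% of genes by level, which left out Ch25h). Npc1, the membrane protein that exports cholesterol from lysosomes, stood at 11.53, 11.43 and 11.51 in the Ly6C- F4/80high cells and 10.97, 11.01 and 11.04 in the Ly6C+ F4/80low cells, a difference of 0.48 (SE 0.07, adjusted p = 0.000700). Npc2, the soluble protein that hands cholesterol to Npc1, stood at 10.81, 10.79 and 10.74 against 10.79, 10.85 and 10.87, overlapping, with a difference of -0.06 (95% interval -0.22 to 0.10). Ch25h, the enzyme that makes an oxysterol which restrains SREBP and activates LXR, stood at 6.01, 5.89 and 6.48 against 5.49, 5.65 and 5.40 and was called higher (0.61, SE 0.14, adjusted p = 0.00812). The 3 mice differed widely for Ch25h, at 0.52, 0.24 and 1.08, and 2 of the 3 Ly6C+ F4/80low arrays were above background. Scarb1, a lipoprotein receptor, differed by 0.00 (95% interval -0.19 to 0.19).

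Genes of the same pathways outside the list are described by their counts. Of 18 measured genes of synthesis and its control that are not on the list, 6 were called higher (33.3%, against 19.5% of all genes), 1 lower (5.56%, against 14.3%) and 11 not at all. Without the lower 50% of genes by level, 7 of 14 were called higher and 1 lower, against 38% and 19.3% of the genes kept. The median of the 18 genes, 0.09, changed sign with the scaling, to -0.05 under quantile normalization and -0.02 under cyclic loess. It was 0.16 without the lower 50% of genes by level. Fads1, a desaturase of polyunsaturated fatty acids, stood at 8.99, 8.89 and 8.64 against 7.42, 7.40 and 7.30, a difference of 1.47 (SE 0.10, adjusted p = 4.10e-06). Erlin2, an endoplasmic reticulum protein that acts in SREBP control, differed by 0.68 (SE 0.08, adjusted p = 0.000155). Acss2, which makes acetyl-CoA from acetate, differed by -0.44 (SE 0.13, adjusted p = 0.0300). That call was lost when the Ly6C- F4/80high array of mouse 1 (0.0583) or 2 (0.0787), the Ly6C+ F4/80low array of mouse 1 (0.103) or 3 (0.0634), or all of mouse 1 (0.149) was dropped.

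Of 14 measured further genes of LXR action and sterol transport 6 were called higher (42.9%), 3 lower (21.4%) and 5 not at all. Among all genes these shares were 19.5% and 14.3%. Without the lower 50% of genes by level, 6 of 13 were called higher and 3 lower, against 38% and 19.3% of the genes kept. The median of the 14 genes, 0.05, also changed sign, to -0.03 under quantile normalization and -0.02 under cyclic loess. It was 0.18 without the lower 50% of genes by level. Lpl, the lipoprotein lipase and an LXR target, and Lipa, the lysosomal lipase that frees cholesterol from its esters, were higher by 2.60 (SE 0.10, adjusted p = 1.66e-07) and 1.01 (SE 0.08, adjusted p = 1.65e-05). Abca7, a transporter related to Abca1, stood at 7.29, 7.33 and 7.16 against 7.93, 8.01 and 7.92 and differed by -0.69 (SE 0.08, adjusted p = 0.000112). Osbp, an oxysterol-binding protein that moves sterols between membranes, differed by -0.26 (SE 0.08, adjusted p = 0.0260). Its call was lost when the Ly6C- F4/80high array of mouse 1 (0.0751) or 2 (0.0686), the Ly6C+ F4/80low array of mouse 2 (0.0519) or 3 (0.0865), or all of mouse 1 (0.0965), 2 (0.102) or 3 (0.0975) was dropped, and with a common median (0.0518). The LXR gene Nr1h3 was among the higher ones, at 0.62 (SE 0.10, adjusted p = 0.000962), and is named after its value was seen.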

How the data were processed

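The deposited values are log2 levels that the authors made with RMA, per the submitters' processing notes, which name no version, and the log2 scale was read from the values. There are 35556 probe sets on 6 Affymetrix arrays, of which 21789 carry 1 gene symbol in the platform annotation. Keeping the probe set of highest mean for each symbol left 19938 genes. limma 3.58.1 in R 4.3.3 was fitted to all of them, with subset as the only term, and was first tested on simulated data. The number of arrays, 3 per subset, limits the precision.

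Both subsets come from the same mouse, so the labels pair the arrays, but deviations of the arrays of a mouse from their subset means correlated at 0.03, -0.08 and 0.09, and the replicate block is an alternative. The others were quantile and cyclic loess normalization, a common median, leaving out the 50% of genes of lowest level, the mean over probe sets, a trended robust prior, and leaving out each array or mouse. All members were described. Levels on every array were given for up to 3 called members of each role group with the largest difference and for the paralog or partner pairs. They were also given for Apoc1, Apoe, Npc1 and the Apoc2 probe set where not so chosen, and for the further pathway genes Fads1 and Abca7. Of each list of further pathway genes, up to 2 called genes in each direction with the largest difference were named. Roles, lists, markers and motifs were chosen with earlier results of these data known. Promoter sequences are from RefSeq.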

Additional observations from a re-analysis of the deposited data

How the results depend on the processing

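Of the 25 called members 18 were called in the same direction under every alternative in which they were fitted, and 0 were reversed. The efflux minus synthesis median stayed between 0.81 and 1.00. With the replicate block, which pairs the arrays of a mouse, the calls of Mvd (adjusted p = 0.0689), Lss (0.0522) and Fasn (0.0673) were lost, so that 0 fatty acid enzymes were called lower. Quantile normalization gave 0 higher SREBP control genes, 2 lower fatty acid enzymes, 2 lower further synthesis genes and 5 lower further LXR genes. Cyclic loess gave 0 higher SREBP control genes and 3 lower further synthesis genes. A common median gave 0 lower fatty acid enzymes and 1 lower further LXR gene. Leaving out the 50% of genes of lowest level moved the median of all genes by 0.15. It gave 2 higher SREBP control genes, as Scap then passed the threshold. It also gave 0 lower efflux genes and 1 higher storage gene, because Apoc1 and Ch25h were then not fitted. Leaving out an array or a mouse gave 1321 to 3290 lower genes among all tested, 2 to 4 lower mevalonate and squalene enzymes, 1 to 3 higher post-squalene enzymes, 0 to 1 higher SREBP control genes, 0 to 1 lower fatty acid enzymes, 0 to 2 lower further synthesis genes and 1 to 2 lower further LXR genes. The cause of the other changes was not tested. Scd1 was not above background, and Lss, Ch25h and Apoc1 lay close to it.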
